A study of Cavia porcellus with 12 samples.

Results

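The vascular and blood cell marker miRNAs examined here were 9 human precursors: hsa-mir-143 and hsa-mir-145 for smooth muscle, hsa-mir-126 for endothelium, and hsa-mir-142, hsa-mir-144, hsa-mir-223, hsa-mir-451a, hsa-mir-486-1 and hsa-mir-486-2 for blood cells. Every entry whose name ended exactly in one of these precursors was taken. An entry is 1 sequence under 1 precursor, so that each length or base variant of a miRNA stands apart. The entries numbered 75 of 1610 in the table for 1 h, 64 of 1335 in the table for 22 h and 96 of 4979 in a further table that sets DOX 22 h against DOX 1 h (the DOX time table), and 62 of the 100 different entries were in all 3 tables. No precursor of the list was absent from any table. Entries named by a mature miRNA alone were not members.

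The cells were ventricular cardiomyocytes of adult female Hartley guinea pigs, freed by retrograde perfusion of the heart, with heparin to wash out blood, and by enzymatic digestion with collagenase, pronase and proteinase K. They were kept at room temperature with 10 µM doxorubicin (DOX), an anthracycline used against cancer, or with its vehicle DMSO, and small RNA was sequenced. The 12 libraries fall into DMSO 1 h, DOX 1 h, DMSO 22 h and DOX 22 h, with 3 in each. The reads were aligned to human sequences, so a guinea pig miRNA was counted only as far as it matched a human precursor.

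The deposited tables hold means over both sides of a comparison and no value per library. In the table for 22 h and in the DOX time table, the means of the shared entries could each be written as whole reads of 1 library plus whole reads of another, with fixed weights. The library names stand in the entries of predicted miRNAs, and are DOX 22 h C1 and DMSO 22 h C1 in the former and DOX 22 h C1 and DOX 1 h C1 in the latter. The reads of these 3 libraries were recovered for all 1323 entries that the 2 tables share, 5206729 reads in DOX 22 h C1, 4378570 in DMSO 22 h C1 and 6778894 in DOX 1 h C1. For 11 of the 64 member entries among them, which include the leading forms of hsa-mir-143, hsa-mir-145 and hsa-mir-126, the means alone left more than 1 solution, and the deposited side values settled it. Each of these comparisons therefore has 1 library a side and no replicate check, both use the DOX 22 h C1 library, and intervals cover counting error only. No such step was present at 1 h, where the table names groups. In the other 2 tables the side values named control followed DOX 22 h C1. Whether the table for 1 h keeps that order, and so which side holds DOX, could not be told.

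A miRNA is cut from a hairpin precursor, whose 5p and 3p arms can each give a mature strand, and it holds back the mRNAs it pairs with. miR-143 and miR-145 come from 1 shared transcript and keep vascular smooth muscle in its contractile state. miR-126 lies in an intron of Egfl7 and is abundant in endothelial cells, where it favours the response to VEGF, and platelets carry it too. miR-142 is found across blood cell lineages, and miR-223 in myeloid cells and platelets. miR-144 and miR-451a come from 1 transcript of the red cell lineage, and miR-451a is cut by Argonaute 2 rather than by Dicer. miR-486 lies in ANK1 and is high in red cells, but striated muscle makes it as well, so of the blood cell list it is the least specific in heart.

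The leading sequences show what was counted. No entry was shorter than 12 or longer than 21 bases, and the listed ends were not set against annotated mature ends. Lengths and start positions are therefore those of the listing, and may differ from those of the miRNAs in the cells. They are shown for hsa-mir-143 and hsa-mir-126 because forms of the same strand moved unequally, and capitals mark the stretch that the leading forms of a strand share, some of which are not printed. The forms of the 3p arm of hsa-mir-143 all began at the same base and differed only at the 3′ end.
hsa-mir-143 3p, 20 bases: AGATGAAGCACTGTAGCTct
hsa-mir-143 3p, 19 bases: AGATGAAGCACTGTAGCTc
hsa-mir-143 3p, 18 bases: AGATGAAGCACTGTAGCT
hsa-mir-143 3p, 20 bases with a final A: AGATGAAGCACTGTAGCTca
hsa-mir-143 3p, 21 bases: AGATGAAGCACTGTAGCTctt
hsa-mir-143 3p, 21 bases with AT at the end: AGATGAAGCACTGTAGCTcat
The leading forms of the 3p arm of hsa-mir-126 had 2 start positions as well as several ends.
hsa-mir-126 3p, 20 bases: gTACCGTGAGTAATAATGcg
hsa-mir-126 3p, 19 bases: gTACCGTGAGTAATAATGc
hsa-mir-126 3p, late start, 19 bases: TACCGTGAGTAATAATGcg
hsa-mir-126 3p, late start, 18 bases: TACCGTGAGTAATAATGc
hsa-mir-126 3p, late start, 20 bases with a final T: TACCGTGAGTAATAATGcgt
hsa-mir-126 3p, late start, 20 bases with a final A: TACCGTGAGTAATAATGcga
The leading 5p forms of hsa-mir-126 and hsa-mir-145, and the leading forms of the blood cell precursors hsa-mir-451a, hsa-mir-144, hsa-mir-223 and hsa-mir-142, identify the remaining rows that the values below turn on.
hsa-mir-126 5p, 19 bases: TTATTACTTTTGGTACGCg
hsa-mir-145 5p, 21 bases: CCAGTTTTCCCAGGAATCcct
hsa-mir-451a, 19 bases: ACCGTTACCATTACTGAgt
hsa-mir-451a, 20 bases: ACCGTTACCATTACTGAgtt
hsa-mir-144 5p, 21 bases: ATATCATCATATACTGTAAGT
hsa-mir-223, 20 bases: TCAGTTTGTCAAATACCCca
hsa-mir-142 5p, 18 bases: caTAAAGTAGAAAGCACT
hsa-mir-142 3p, 20 bases: AGTGTTTCCTACTTTATGGa

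Members made up a large part of the small RNA signal of these cardiomyocyte preparations, and most of it was hsa-mir-143. Their share of the summed mean counts was 23.8% at 1 h, 24.8% at 22 h and 23.1% in the DOX time table. The smooth muscle pair held 19.4%, 20.96% and 19.8% of the mean counts in the same order of tables, of which hsa-mir-145 held only 0.385%, 0.321% and 0.357%. The endothelial hsa-mir-126 held 4.41%, 3.83% and 3.24%. The 6 blood cell precursors together held 0.0525%, 0.0448% and 0.0464%. The labelled cell type was visible in its own markers: the 8 cardiomyocyte precursors hsa-mir-1-1, 1-2, 133a-1, 133a-2, 133b, 208a, 208b and 499a were all listed and held 33.5%, 35.2% and 37.1%. At 1 h, hsa-mir-1-1 and 1-2 held 9.85% and 10.8%, and hsa-mir-133a-1 and 133a-2 held 2.79% each. Such near-equal pairs may hold the same sequences counted under 2 names. With each sequence counted once the member share at 1 h was 30.2%, and that of the cardiomyocyte list was not computed. In bulk RNA, more cells of a type and more of its miRNA per cell cannot be told apart, and these shares also depend on how readily each miRNA entered a library.

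The blood cell shares were small but well above counting error. Blood cell precursors had 2005 reads in DOX 22 h C1, a share of 0.0385% (exact binomial interval 0.0368 to 0.0402%), 2255 reads in DMSO 22 h C1, a share of 0.0515% (0.0494 to 0.0537%), and 3433 reads in DOX 1 h C1, a share of 0.0506% (0.0490 to 0.0524%). The share was lowest in the DOX 22 h library, and the intervals of DMSO 22 h C1 and DOX 1 h C1 overlapped. Most of the blood cell reads were miR-486, with 1590, 1871 and 2977 in DOX 22 h C1, DMSO 22 h C1 and DOX 1 h C1. The shares of hsa-mir-486-1 and hsa-mir-486-2 were likewise lowest in DOX 22 h C1, at 0.0146% and 0.0159%. They were 0.0209% and 0.0218% in DMSO 22 h C1, and 0.0220% and 0.0219% in DOX 1 h C1. The shares of hsa-mir-142 and hsa-mir-144 were lowest in DOX 1 h C1, at 0.00364% and 0.000103%. Those of hsa-mir-451a and hsa-mir-223 were lowest in DOX 22 h C1, at 0.00206% and 0.000327%, where their intervals overlapped those of the others. The smooth muscle pair took 22.1% of the reads in DOX 22 h C1, 19.7% in DMSO 22 h C1 and 17.97% in DOX 1 h C1. In the same libraries hsa-mir-126 took 3.25%, 4.43% and 3.29%. The cardiomyocyte list took 36.2%, 34.1% and 38.7%. Whether the cell makeup of the 3 libraries had a part in the ratios given below was not tested.

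**Figure D1:**
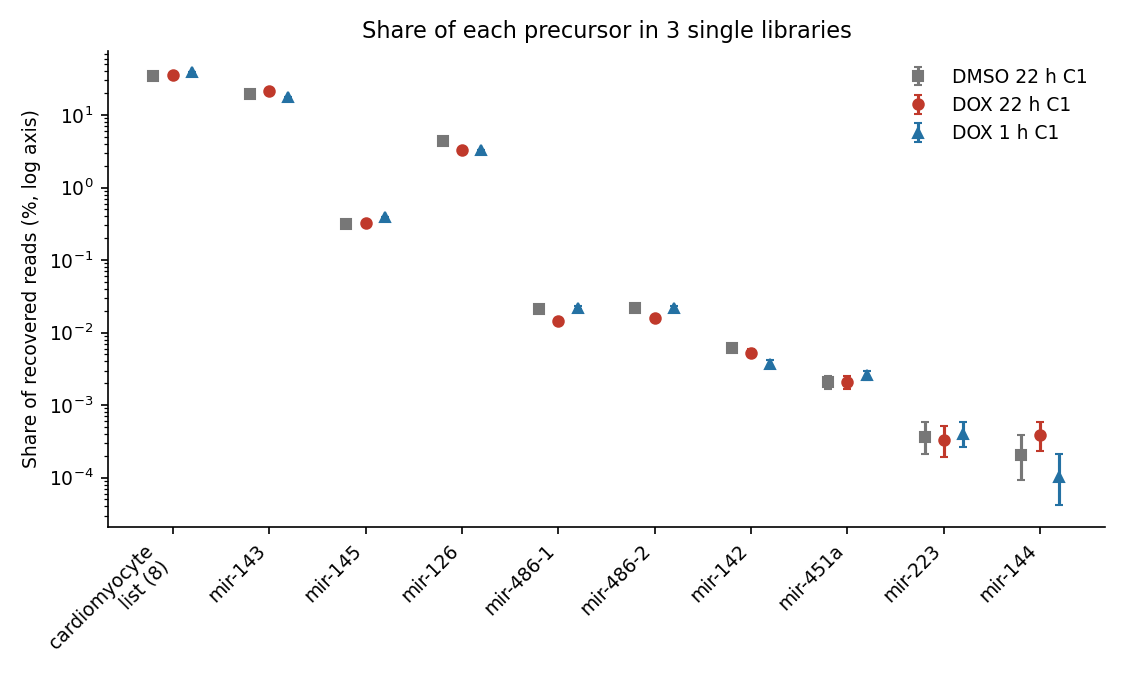
Share of the recovered reads (%, log axis) of the 8 cardiomyocyte precursors together and of each of the 9 vascular and blood cell precursors, in the single libraries DMSO 22 h C1, DOX 22 h C1 and DOX 1 h C1, with exact 95% binomial intervals. hsa-mir-143 (17.6 to 21.8%) comes next to the whole cardiomyocyte list (34.1 to 38.7%), hsa-mir-126 and hsa-mir-145 lie below it, and the blood cell precursors all lie below 0.03%.

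The most abundant entry of every table was a form of hsa-mir-143. The 20-base form of its 3p arm held 8.68% of the mean counts at 1 h, 9.64% at 22 h and 8.89% in the DOX time table, and its 19-base form ranked next in each. It had 517081 reads in DOX 22 h C1, 408627 in DMSO 22 h C1 and 545233 in DOX 1 h C1. The DOX 22 h level was 1.13 times that of DMSO 22 h (1.12 to 1.13) and 1.22 times that of DOX 1 h (1.21 to 1.22), after scaling for library size. The other strand was rare, since the 5p arm made up 0.0342%, 0.0400% and 0.0344% of the hsa-mir-143 reads in DOX 22 h C1, DMSO 22 h C1 and DOX 1 h C1. Its leading 19-base form, ending in CTGG, had 200, 148 and 224 reads in that order, and the intervals of both its ratios included 1.

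Summed over its 13 entries with reads in all 3 libraries, hsa-mir-143 had 1134893 reads in DOX 22 h C1, 850381 in DMSO 22 h C1 and 1191483 in DOX 1 h C1. The ratio was 1.19 (1.18 to 1.19) against DMSO 22 h and 1.22 (1.22 to 1.23) against DOX 1 h. The forms did not move alike against DMSO 22 h. The 18-base and 19-base forms of the 3p arm had ratios of 1.29 and 1.33, the 20-base form with a final A had 0.988, and the 21-base form with AT at the end, at 5385 reads against 8000, had 0.599 (0.578 to 0.620). Forms of 18 and 19 bases made up 43.4% of the 3p reads in DOX 22 h C1, 38.9% in DMSO 22 h C1 and 42.2% in DOX 1 h C1. This share needs no scaling between libraries, and it was lowest in the DMSO 22 h library.

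hsa-mir-145, processed from the same transcript, was far rarer than hsa-mir-143 and did not keep to its pattern. It had 17071 reads in DOX 22 h C1, 13763 in DMSO 22 h C1 and 26648 in DOX 1 h C1. The ratio was 1.10 (1.08 to 1.13) against DMSO 22 h and 0.824 (0.808 to 0.8397) against DOX 1 h. Of all reads of the smooth muscle pair, hsa-mir-145 made up 1.48% (1.46 to 1.504%) in DOX 22 h C1, 1.59% (1.57 to 1.62%) in DMSO 22 h C1 and 2.19% (2.16 to 2.21%) in DOX 1 h C1. The 1 h library thus had the most hsa-mir-145 for its hsa-mir-143, and the pair of 22 h libraries lay close together. The leading 21-base 5p form carried most of this, with 11620, 9905 and 18645 reads in DOX 22 h C1, DMSO 22 h C1 and DOX 1 h C1. The leading 3p form, of 20 bases, had 660, 476 and 1170 reads, and its ratios were 1.23 (1.09 to 1.39) against DMSO 22 h and 0.725 (0.658 to 0.799) against DOX 1 h.

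The endothelial hsa-mir-126 was lower in DOX 22 h than in DMSO 22 h, while it differed little from DOX 1 h. It had 169350 reads in DOX 22 h C1, 194187 in DMSO 22 h C1 and 222934 in DOX 1 h C1, so that its ratio was 0.776 (0.771 to 0.781) against DMSO 22 h and 0.977 (0.971 to 0.983) against DOX 1 h. The 20-base 3p form led, with 83139, 100144 and 115668 reads in DOX 22 h C1, DMSO 22 h C1 and DOX 1 h C1. The leading 5p form, of 19 bases, had 6728, 8059 and 8736 reads, and the 5p arm made up 10.0%, 8.88% and 9.19% of the precursor's reads in the same order.

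Most of the lower hsa-mir-126 level lay in 3 forms that share their 3′ end, GCG, a grouping chosen after their values were seen. Against DMSO 22 h, the 20-base 3p form had a ratio of 0.738 (0.732 to 0.745), the late-start 19-base 3p form 0.602 (0.591 to 0.612), and the 19-base 5p form 0.742 (0.719 to 0.767). The 9 other forms with at least 1000 reads in a 22 h library had ratios from 0.897 to 1.14. The late-start form with a further A, for example, had 3207 reads in DOX 22 h C1 and 2502 in DMSO 22 h C1, a ratio of 1.14 (1.08 to 1.20). The 3 forms made up 65.2% of the hsa-mir-126 reads in DOX 22 h C1, 71.4% in DMSO 22 h C1 and 69.5% in DOX 1 h C1. Very short 3p forms of 12 to 15 bases varied more. The 13-base form had 86, 45 and 50 reads in that order, a ratio of 1.70 (1.17 to 2.49) against DMSO 22 h and 2.21 (1.54 to 3.20) against DOX 1 h. The 15-base form had 92, 132 and 98 reads, a ratio of 0.620 (0.470 to 0.815) against DMSO 22 h. These forms add little to the sum, since each made up under 0.1% of the 3p reads.

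**Figure D2:**
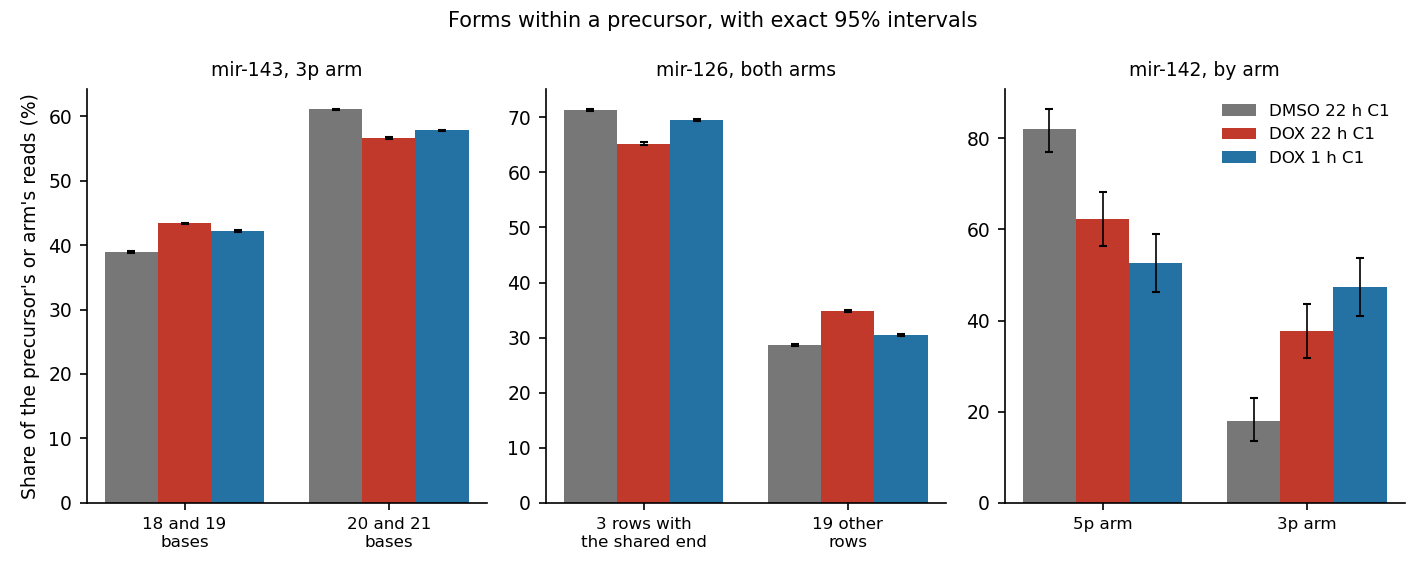
Share (%) of the reads of the hsa-mir-143 3p arm held by its shorter and longer forms, of hsa-mir-126 held by the 3 forms that share the end GCG and by the 19 others, and of hsa-mir-142 held by each arm. Bars are the single libraries DMSO 22 h C1, DOX 22 h C1 and DOX 1 h C1 with exact 95% binomial intervals. The DMSO 22 h library had the fewest short hsa-mir-143 forms (38.9%), the most hsa-mir-126 forms with the shared end (71.4%) and the largest share of the hsa-mir-142 5p arm (82.1%).

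The most abundant blood cell miRNA was miR-486, and it was lowest in DOX 22 h. hsa-mir-486-1 and hsa-mir-486-2 list the same sequences in 4 pairs of entries, which the authors' counting may have split between them, so their separate values are uncertain. Together they had 1459 reads of the 5p arm in DOX 22 h C1, 1718 in DMSO 22 h C1 and 2782 in DOX 1 h C1. The ratio of the 5p arm was 0.755 (0.704 to 0.810) against DMSO 22 h and 0.674 (0.632 to 0.719) against DOX 1 h. Its 4 entries list the same sequences under both names and so are not independent. Each gave a ratio below 1 in both comparisons, from 0.657 to 0.824 and from 0.640 to 0.725. The leading 5p entry of hsa-mir-486-1 by mean count in the DOX time table, of 20 bases, had 365, 394 and 733 reads in DOX 22 h C1, DMSO 22 h C1 and DOX 1 h C1, and that of hsa-mir-486-2, of 19 bases, had 387, 441 and 686. The 3p arm had 131, 153 and 195 reads, with ratios of 0.761 (0.598 to 0.968) and 0.864 (0.687 to 1.08). Its leading entries had 35, 34 and 37 reads under hsa-mir-486-1 and 67, 85 and 113 under hsa-mir-486-2.

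The arms of hsa-mir-142 differed in direction between the 22 h libraries. The 5p arm had 169 reads in DOX 22 h C1, 220 in DMSO 22 h C1 and 130 in DOX 1 h C1, and the 3p arm had 102, 48 and 117. Against DMSO 22 h, the 5p arm had a ratio of 0.683 (0.556 to 0.839) and the 3p arm one of 1.89 (1.33 to 2.72). Against DOX 1 h the ratios were 1.67 (1.32 to 2.12) for 5p and 1.12 (0.851 to 1.47) for 3p. The 5p arm made up 62.4% (56.3 to 68.2%) of the hsa-mir-142 reads in DOX 22 h C1, 82.1% (77.0 to 86.5%) in DMSO 22 h C1 and 52.6% (46.2 to 59.0%) in DOX 1 h C1. The DMSO 22 h library stood apart from both DOX libraries. The leading 5p form, of 18 bases, had 61, 84 and 62 reads. The leading 3p form, of 20 bases, had 42, 11 and 51 reads, a ratio of 3.40 (1.72 to 7.31) against DMSO 22 h and of 1.06 (0.687 to 1.62) against DOX 1 h. The 8 forms with reads in all 3 libraries held 6 to 84 reads each, and no arm is called changed without a replicate.

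The red cell miRNAs hsa-mir-451a and hsa-mir-144 were scarce in these 3 libraries. The 2 forms of hsa-mir-451a with reads in all of them summed to 107 reads in DOX 22 h C1, 91 in DMSO 22 h C1 and 175 in DOX 1 h C1, ratios of 1.05 (0.783 to 1.398) against DMSO 22 h and 0.786 (0.612 to 1.01) against DOX 1 h. The 19-base form had 79, 80 and 145 reads, a ratio of 0.878 (0.635 to 1.21) against DMSO 22 h and of 0.7005 (0.526 to 0.928) against DOX 1 h. The 20-base form had 28, 11 and 30 reads, a ratio of 2.26 (1.09 to 5.04) against DMSO 22 h and of 1.20 (0.691 to 2.08) against DOX 1 h. The forms of 17 and 18 bases were not in the table for 22 h, and had 3 and 0 reads in DOX 22 h C1 and 5 and 8 in DOX 1 h C1. With them, hsa-mir-451a had 110 reads against 188, a ratio of 0.752 (0.589 to 0.957) against DOX 1 h, whose interval lay below 1 where that of the 2 forms did not. A form of 21 bases was listed at 1 h only, where its mean could not be restored.

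hsa-mir-144, from the same transcript as hsa-mir-451a, had 20 reads of its 21-base 5p form in DOX 22 h C1, 9 in DMSO 22 h C1 and 7 in DOX 1 h C1. The ratio was 1.98 (0.860 to 4.93) against DMSO 22 h and 3.67 (1.49 to 10.3) against DOX 1 h. Its 3p arm was listed only for DOX 22 h and DOX 1 h, with 1 read against 7 for the 16-base form and 0 against 1 for the 17-base form. Over its 3 forms hsa-mir-144 had 21 reads against 15, a ratio of 1.80 (0.885 to 3.75) whose interval included 1, so the value of 3.67 held for the 5p form. These reads are too few to compare the arms. hsa-mir-223 had 1 form in all 3 libraries, of 20 bases, with 17 reads in DOX 22 h C1, 16 in DMSO 22 h C1 and 27 in DOX 1 h C1. The ratios of this form, 0.945 (0.449 to 1.998) and 0.810 (0.414 to 1.54), were not distinguishable from 1 at this depth. Over its 8 forms in the DOX time table, hsa-mir-223 had 60 reads in DOX 22 h C1 and 121 in DOX 1 h C1, a ratio of 0.638 (0.460 to 0.876), with 7 of the 8 forms below 1. Single forms held 0 to 17 reads in DOX 22 h C1 and 6 to 27 in DOX 1 h C1.

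Changes past 2-fold were about as common among the members as among all entries at 22 h, and fell on low counts. Of the 64 member entries, 4 were at least 2-fold higher in DOX 22 h than in DMSO 22 h and 2 at least 2-fold lower, with 0.5 added to each read count, against 5.59% and 4.46% of all 1323 entries (10.1% in either direction). All 6 also had at least 10 reads in 1 library, as did every entry tested (10.1% again), and 31 of the 64 had ratios above 1, against 49.9% of all entries. The median log2 ratio was -0.02 over the members and -0.00 over all entries. The 4 higher entries were the forms of hsa-mir-142 (42 against 11 reads) and hsa-mir-451a (28 against 11) given above, a 21-base 5p form of hsa-mir-143 ending in GGTC (27 against 5) and a 16-base 3p form of hsa-mir-126 (21 against 3). The lower ones were further 5p forms of hsa-mir-143, of 21 bases ending in GGTA (8 against 17) and of 19 bases ending in CTGT (12 against 23). The highest count among these 6 entries was 42 reads.

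Between DOX 22 h and DOX 1 h, 16 of 96 member entries were at least 2-fold higher in DOX 22 h and 10 at least 2-fold lower, against 13.2% and 15.1% of 2332 entries (28.3% in either direction). Ratios were above 1 in 56 of the 96, against 49.1% of all entries. Without a floor on reads, 26 of the 96 member entries were past 2-fold in either direction, against the 28.3% of all entries. Both fell with a floor of 10 reads in 1 library. Among the 69 with at least 10 reads in 1 library, 9 were higher and 1 lower, against 7.26% and 7.45% of 1611 entries (14.7% in either direction). The median log2 ratio over the 96 entries was 0.13, also with libraries at 0 set to 3 reads, and -0.01 over all entries. Of the higher ones, a 21-base 5p form of hsa-mir-143 ending in GGAT had 11 reads in DOX 22 h C1 and 0 in DOX 1 h C1, at least 4.71-fold higher at a floor of 3 reads for the library. A 12-base form of hsa-mir-126 had 16 reads against 1, a ratio of 20.6 (3.20 to 863). The others were the 13-base and 14-base 3p forms of hsa-mir-126 (86 against 50 and 134 against 80 reads), its 16-base form (21 against 13), 5p forms of hsa-mir-143 ending in GGTC (27 against 17) and GGTT (18 against 10), a 19-base 5p form of hsa-mir-142 (42 against 16, ratio 3.38, 1.86 to 6.43) and hsa-mir-144. The lower one was the 21-base form of hsa-mir-223 ending in CCAT, with 6 reads against 18. Of these 10 entries, 4 were hsa-mir-126 and 3 hsa-mir-143 forms.

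**Figure D3:**
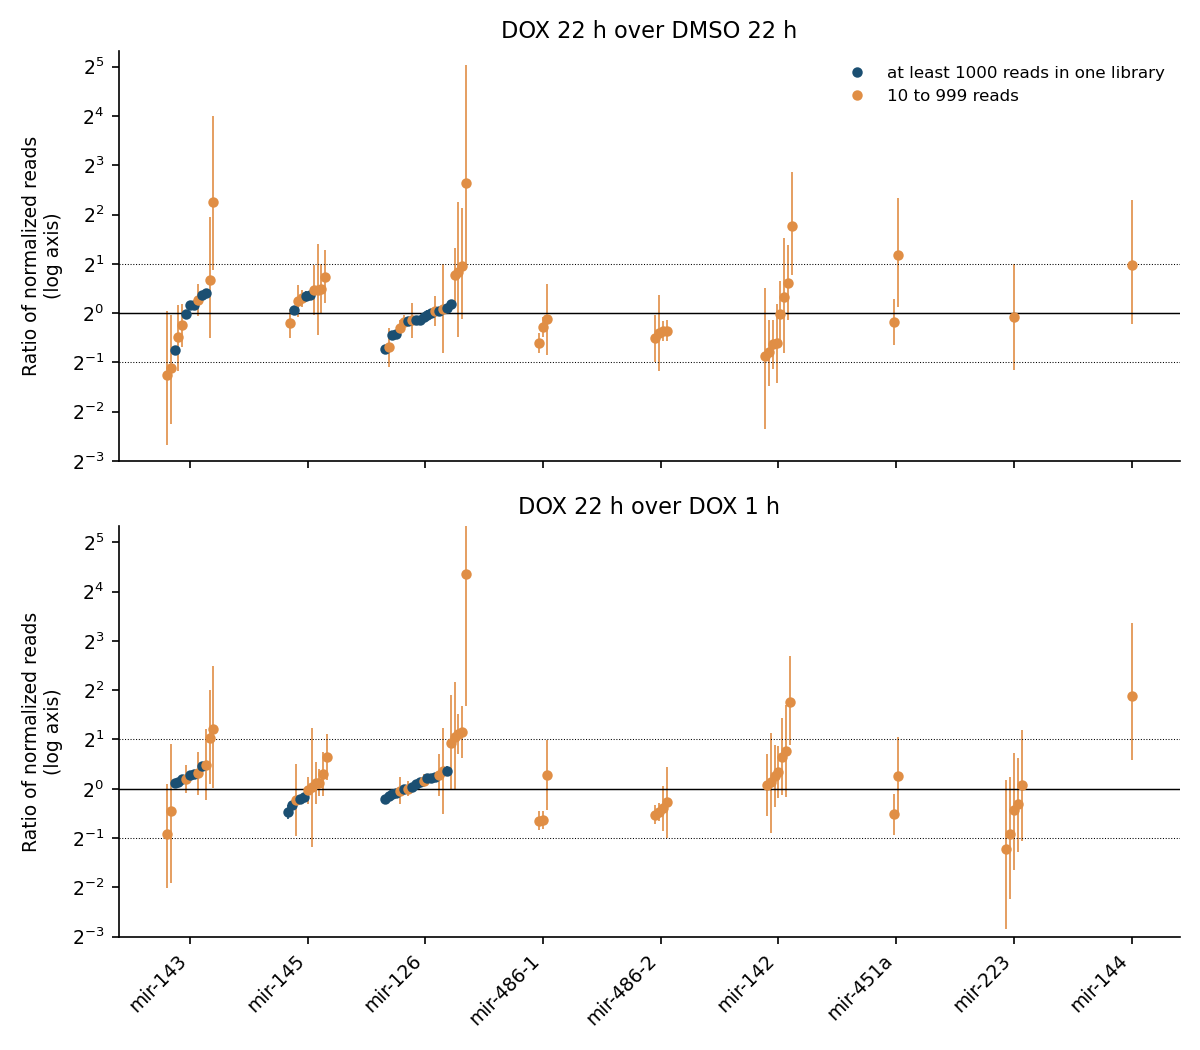
Ratio of normalized reads (log axis) for each member entry with at least 10 reads in 1 library and none at 0, DOX 22 h over DMSO 22 h above and DOX 22 h over DOX 1 h below, ordered within each precursor, with exact 95% intervals for counting error and dotted lines at 2-fold. Entries with at least 1000 reads in 1 library stay between 0.599 and 1.38, and those past 2-fold have fewer reads; the interval of 1 hsa-mir-126 form runs past the lower panel.

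Summed over the 64 entries, members had a ratio of 1.11 (1.11 to 1.11) against DMSO 22 h and of 1.18 (1.18 to 1.18) against DOX 1 h. hsa-mir-143 set both values. Without it, the ratios of the other 8 precursors together were 0.797 (0.792 to 0.802) and 0.958 (0.952 to 0.963). The cardiomyocyte list, for comparison, had ratios of 1.12 (1.12 to 1.12) and 0.922 (0.920 to 0.924).

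Of the miRNAs high in red cells, hsa-mir-451a and hsa-mir-144 stood out in the table for 1 h by their status words and restored means. miR-486 did not. The status word Outlier, whose rule is not given in the sources used here, stood beside 5 of the 75 member entries and 2.42% of all 1610. It stood beside 3 of the 5 hsa-mir-451a entries, the 1 hsa-mir-144 entry and the late-start 19-base form of hsa-mir-126. None of the 24 smooth muscle entries had it, and no entry of either hsa-mir-486 precursor. The cardiomyocyte list had 9 of 120. The 19-base form of hsa-mir-451a had a mean of 310.6 at 1 h, against 79.7 at 22 h and 108.7 in the DOX time table, and the 20-base form had 85.2 against 19.03 and 29.1. hsa-mir-144 had 27.6 at 1 h, against 14.2 and 14.4. These 1 h means depend on how the lost decimal mark was restored. The 19-base and 20-base means were 2.86 and 2.93 times those of the DOX time table, and 1 decimal place lower they would be 31.1 and 8.52, the latter under the lowest mean of 10.

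The DOX 1 h C1 library, whose reads were recovered, allowed these 1 h means to be set beside a single library of the same hour. Relative to the median over 1483 entries, the 1 h mean of the 19-base form of hsa-mir-451a was 2.13 times its level in DOX 1 h C1, that of the 20-base form 2.82 times. For the forms of 18 and 17 bases, on 8 and 5 reads, the values were 3.20 and 2.50, but their decimal place was set by the lowest mean of 10, and at the place nearest to the DOX time table they would be 0.320 and 0.2499. For hsa-mir-144, on 7 reads, it was 3.92 times. For hsa-mir-223 the 5 forms lay between 1.08 and 1.52, for hsa-mir-143 the 6 forms of the 3p arm between 0.884 and 1.00, and for both hsa-mir-486 precursors all entries lay below 1. For hsa-mir-142 the 5 forms of the 5p arm lay between 1.25 and 2.13 and the 3 forms of the 3p arm between 0.708 and 0.859. For hsa-mir-126 most forms lay above 1, with 1.16 for the 20-base 3p form, 1.22 for the late-start 19-base form and 0.978 for the leading 5p form. A 1 h mean above the level in this 1 library was thus found for hsa-mir-451a and hsa-mir-144, as restored, and for the 5p arm of hsa-mir-142. It was also found for hsa-mir-223 and most hsa-mir-126 forms, by smaller factors in their abundant forms, while miR-486 was lower. Which other libraries held the difference could not be told from a mean, and the reason was not tested.

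**Figure D4:**
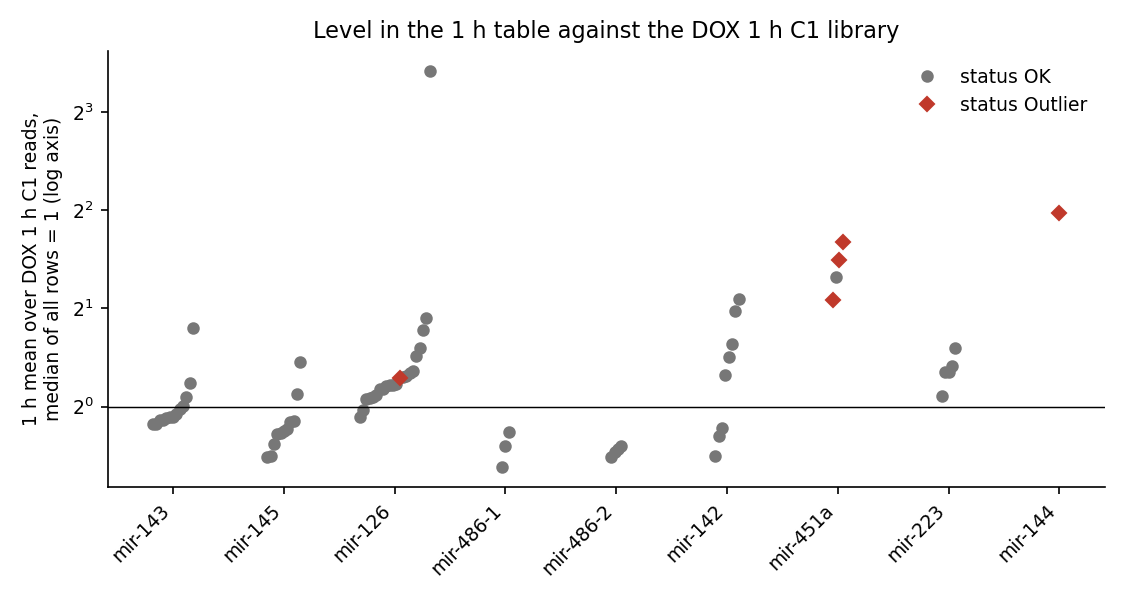
Mean count in the table for 1 h over the reads of DOX 1 h C1 (log axis, scaled so that the median of 1483 entries is 1), 1 point per member entry, with entries of status Outlier as red diamonds. The hsa-mir-451a entries lie between 2.13 and 3.20 and the hsa-mir-144 entry at 3.92, although the decimal place of the hsa-mir-451a forms at 2.50 and 3.20 was set by the lowest mean of 10, while the entries of both hsa-mir-486 precursors lie below 1; the hsa-mir-126 entry at 10.7 rests on 1 read in the library.

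The side values at 1 h, which the table names control and comparison, lay close together for the members. Of the 71 member entries with a usable mean, 30 were higher on the side named comparison, against 49.8% of 1506 entries. The ratio of comparison to control ran from 0.599 to 1.32 over the members with a median of 0.964, and from 0.470 to 4.74 over all entries with a median of 0.999. The summed sides had a ratio of 1.01 for hsa-mir-143, 1.11 for hsa-mir-145 and 0.866 for hsa-mir-126. For hsa-mir-451a it was 1.08, and the 7 hsa-mir-486 entries were all lower on the side named comparison. The name control need not mean DMSO, since in both other tables that side followed DOX 22 h C1. Whether it holds DOX at 1 h could not be told. In the tables with recovered reads, such side values lay closer together than the reads, keeping a median factor of 0.276 (22 h) and 0.291 (DOX time table) of the log ratio at means of 10 to 20, and of 0.907 and 0.947 at means of 2000 to 10000. Values at 1 h are therefore printed as deposited, and no change was called.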

How the data were processed

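The authors sequenced TruSeq small RNA libraries on the HiSeq 2500, aligned reads to human sequences (hg19 in the submitters' processing notes) in the BaseSpace Small RNA application v1.0, and deposited 1 table per comparison. The deposited mean is a signal, reads divided by size factors and averaged over both sides. Log2 fold changes, standard errors, p-values and adjusted p-values in the tables are the authors' own comparisons and were not used. The decimal mark was missing from the means in the tables of both hours. It was restored with the help of the DOX time table, which lists the same entries, and with 10 as the lowest mean, which raised 15 entries at 1 h, 2 of them hsa-mir-451a forms (17 and 18 bases). At 1 h, 4 member entries had no partner and no usable mean. Whole reads were solved from the means of both tables with DOX 22 h (1216 entries), and 107 needed the side values as well, a step chosen after seeing the data. Of the 32 member entries in the DOX time table only, all were solved. Among low entries of known reads, which both tables list, this gave 179 right and 0 wrong solutions where it left 1 solution. Entries of the DOX time table only were not themselves in that check. The recovery was also run on simulated data. The simulated side values were drawn within the limits that the recovery accepts, so that run did not test whether the real ones keep to them. Normalized ratios are 731 x DOX 22 h reads / (822 x DMSO 22 h reads) and 9 x DOX 22 h reads / (7 x DOX 1 h reads), with Clopper-Pearson 95% intervals. No p-value was computed. Starts more than 15 bases apart were taken as different arms. Named entries were the most abundant of each arm, all of a precursor with 5 or fewer, and those past 2-fold with at least 10 reads. The depth of the other 9 libraries is unknown. Members and lists were chosen with earlier results of these data known. No genome coordinates were used. Python 3.11.15, numpy 2.4.6, pandas 2.3.3 and scipy 1.17.1 were used.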

Additional observations from a re-analysis of the deposited data

How the results depend on the processing

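The member shares of the mean counts rose to 30.2% (1 h), 31.4% (22 h) and 29.5% (DOX 22 h and DOX 1 h) with each sequence counted once, and were 20.7%, 21.7% and 19.4% with only the leading entry of each arm. With only entries of human precursors, the last share was 23.3%. The 6 member entries past 2-fold at 22 h became 21 at 1.5-fold, where the share over all entries was not computed. The 26 between DOX 22 h and DOX 1 h (28.3% of all entries) became 10 with at least 10 reads in 1 library (14.7% of all entries). The summed ratio against DMSO 22 h reversed to 0.913 with reads up to 1000, to 0.921 with reads solved from means alone and to 0.797 without hsa-mir-143, and was 1.05 scaled to total reads. That against DOX 1 h reversed to 0.950 with reads up to 1000 and to 0.958 without hsa-mir-143, and was 1.01 with reads solved from means alone, 1.19 centred on the median ratio and 1.19 scaled to total reads. The first 2 of these alternatives leave out the abundant hsa-mir-143 forms. The hsa-mir-451a ratio at 22 h reversed to 0.989 when scaled to total reads. Means-alone reads, total-read scaling, leaving out hsa-mir-143 and summing every form of the DOX time table (0.638 in place of 0.810 for hsa-mir-223 against DOX 1 h, 0.752 in place of 0.786 for hsa-mir-451a, 1.80 in place of 3.67 for hsa-mir-144) were chosen after seeing the data. No paired analysis was possible because the tables hold 1 library a side or no value per library, and no replicate could be left out for the same reason. Depth limits hsa-mir-144, hsa-mir-223 and hsa-mir-451a, whose forms held at most 145 reads.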

Other observations

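Other leukocyte precursors were scarcer still than the blood cell list. They held 0.0303% of the mean counts at 1 h, 0.0262% at 22 h and 0.0217% in the DOX time table. The blood cell list held 0.0525%, 0.0448% and 0.0464%. hsa-mir-146a, induced by inflammatory signals in many cell types, had 992 reads in DOX 22 h C1, 1085 in DMSO 22 h C1 and 1074 in DOX 1 h C1, with ratios of 0.813 (0.745 to 0.887) against DMSO 22 h and 1.19 (1.09 to 1.30) against DOX 1 h. hsa-mir-150, high in mature lymphocytes, had 13, 17 and 37 reads in the same order, and ratios of 0.680 (0.304 to 1.49) and 0.452 (0.220 to 0.870). hsa-mir-155 had 66, 70 and 67 reads and hsa-mir-342 had 121, 127 and 139, and the intervals of their ratios included 1. Precursors of the fibroblast list, hsa-mir-199a-1, 199a-2, 199b and 214, held 0.389% of the mean counts in the table for 1 h, 0.285% in that for 22 h and 0.276% in the DOX time table. Their summed ratios were 1.01 (0.985 to 1.03) against DMSO 22 h and 0.996 (0.974 to 1.02) against DOX 1 h.

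An entry that carries only the mature name hsa-miR-143-3p, and so was not a member, had 29 reads in DOX 22 h C1, 39 in DMSO 22 h C1 and 72 in DOX 1 h C1.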
